A study of Mus musculus with 24 samples.

Results

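The keratins described here are 10 genes of the squamous and stressed oesophageal lining: the stress keratins Krt6a, Krt6b, Krt16 and Krt17, the basal pair Krt5 and Krt14, the mucosal suprabasal pair Krt4 and Krt13, and the cornification pair Krt1 and Krt10. Members were the probes on the array whose gene name in the scanner files was one of these 10, which gave 13 probes among the 41174 on the array. All 13 passed the filter on dim probes, among 30029 probes tested in all. Krt13, Krt1 and Krt10 have 2 probes each, named here as the brighter and the dimmer probe by their mean Cy5 signal, and the other 7 genes have 1. Brightness names a probe and says nothing about the abundance of one keratin against another.

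Expression was measured in the oesophagus of male C57BL/6J mice aged 12 weeks. Nrf2-/- mice, which lack the transcription factor encoded by Nfe2l2 in the whole body and are called Nrf2-null below, were set against wild-type (WT) mice, under each of 4 conditions: no reflux, and reflux of gastric, of duodenal or of mixed contents that had lasted 4 weeks. The 8 groups had 3 arrays apiece, which the labels call biological replicates without saying whether each RNA came from 1 mouse. The tissue field of the labels reads whole oesophagus for 7 groups and oesophageal epithelium for Nrf2-null mixed reflux, although the source field calls every sample epithelium. A genotype difference under mixed reflux therefore cannot be told apart from a difference in dissected tissue. RNA of the oesophagus was always labelled with Cy5, and a commercial RNA pool of 11 mouse cell lines always with Cy3, with no dye swap. The RNA is from bulk tissue, so a larger share of keratinocytes and more keratin RNA per keratinocyte cannot be told apart in any value below.

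Keratins are the intermediate filament proteins of epithelial cells, and a filament is built from pairs of 1 type I and 1 type II chain. Basal cells of stratified epithelia make Krt5 and Krt14, cells that move up in the mucosa of the oesophagus replace them with Krt4 and Krt13, and cells that cornify, as in the skin, make Krt1 and Krt10. Krt6a, Krt6b, Krt16 and Krt17 are low in most resting epidermis and are known to be switched on in wounded, inflamed or fast-dividing epithelium. The type II genes here (Krt1, Krt4, Krt5, Krt6a, Krt6b) lie on chromosome 15 and the type I genes with a mapped probe (Krt10, Krt13, Krt14, Krt16, Krt17) on chromosome 11.

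The sequence of a probe decides which transcript it reads, and 7 are shown because results below turn on which transcript or which exons a probe covers. Each is printed 5′ to 3′ as the scanner files give it. For Krt6a the first 24 bases of the probe are shown, and the capitals mark TGA, the stop codon of the reading frame.
Krt6a: agcaagaagagctacaggcagTGA
Krt6b: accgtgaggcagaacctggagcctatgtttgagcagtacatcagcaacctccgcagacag
Krt14: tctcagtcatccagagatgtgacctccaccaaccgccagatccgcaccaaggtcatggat
Krt4: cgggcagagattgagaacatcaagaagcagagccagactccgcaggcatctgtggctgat
Krt13 brighter probe: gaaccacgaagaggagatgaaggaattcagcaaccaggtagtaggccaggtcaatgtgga
Krt13 dimmer probe: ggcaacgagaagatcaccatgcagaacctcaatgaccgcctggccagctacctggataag
Krt10 dimmer probe: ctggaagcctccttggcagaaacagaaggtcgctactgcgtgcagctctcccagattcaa

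The Krt6a probe lies at chr15:101520862-101520921 on the minus strand (mm9, as are all positions here) and starts just before the stop codon, so most of it reads untranslated RNA. The Krt6b probe, at chr15:101509450-101509509 on the minus strand, sits inside the coding sequence, and the files list 2 RefSeq transcripts for it, that of Krt6b and that of Krt6a. Its values can therefore hold signal from both genes, and a difference named Krt6b below is a difference of this probe. The probes of Krt14 (chr11:100064683-100065288), Krt4 (chr15:101750158-101750736) and the brighter probe of Krt13 (chr11:99980710-99980948) are 60 bases long but span 606, 579 and 239 bases of the minus strand, so each crosses an intron and reads spliced RNA. The dimmer Krt13 probe (chr11:99982471-99982530) and the dimmer Krt10 probe (chr11:99247994-99248053) each map without a gap. The probes of Krt16 (chr11:100107405-100107464), Krt17 (chr11:100117584-100117643) and Krt5 (chr15:101537514-101537573) also map without a gap, and those of Krt16 and Krt5 hold the polyadenylation letters AATAAA. The brighter Krt10 probe has no mapped position in the files. The brighter Krt1 probe lies at chr15:101676107-101676166 on the minus strand, whereas the dimmer Krt1 probe lies at chr15:101678904-101678963 on the plus strand with no RefSeq transcript listed, so it reads the strand opposite to the Krt1 gene.

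The targeted gene separated the genotypes at 2 of its 3 probes, where Nfe2l2 lay at log2 ratios of -3.81 to -2.83 and of -7.54 to -5.03 in the 10 Nrf2-null samples, against 1.45 to 2.18 and 1.31 to 2.05 on the 10 WT arrays that measured it. Its remaining probe covered the same range in both genotypes. The 3 arrays of Nrf2-null mixed reflux differed from each other by hardly more than repeat spots of 1 array did (their variance was 0.749 to 1.59 times that of repeat spots, and 1.65 to 64.3 times in the 21 pairs of other groups), and were averaged and counted as 1 sample, leaving 22. Both arrays of slide 1, WT without reflux 1 and 2, had 13% and 11.8% of spots marked as outliers by the scanner software, against 0.293% to 0.659% elsewhere. These marks removed Krt14, Krt4, the dimmer Krt13 probe and the brighter Krt10 probe from both arrays, and Krt5 and the brighter Krt13 probe from 1 of them. A pair of Nrf2-null arrays, gastric reflux 1 and duodenal reflux 2, were dim, with median Cy5 signals of 88.2 and 85.3, against 138 to 249 on the 20 other arrays outside slide 1. WT mixed reflux 2 stood apart from the other arrays of its group for the stress keratins.

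The Cy3 channel held the same RNA on every array, yet the keratin spots were not constant in it. Over the samples outside slide 1, the range of the scaled Cy3 signal ran from 1.04 (Krt5) to 6.82 (Krt6a) on the log2 scale, against a median range of 0.61 over all probes tested. The Cy3 signal of Krt17, for example, was 12399, 6866 and 12544 on the Nrf2-null duodenal arrays and 17526, 16877 and 18682 on the Nrf2-null mixed reflux arrays, against 493, 504 and 383 in Nrf2-null mice without reflux. It was thus high where Cy5 was high. S100a8, a neutrophil alarmin that is no keratin, had a Cy3 signal of 758 to 1508 over all 24 arrays while its Cy5 signal ran from 206 to 343094. Because the reference signal of a keratin spot moved with its sample signal, a ratio to the reference is smaller than the Cy5 difference for the stress keratins, and the text gives both. The cause was not tested. The ratio, corrected and normalised as described in the processing section, is the main measure, and "Cy5 alone" is the log2 Cy5 signal scaled to the 75th percentile of each array. Values after ± are standard errors of the limma fit, and p-values are adjusted by the Benjamini-Hochberg method over all probes tested, with a threshold of 0.05.

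**Figure D1:**
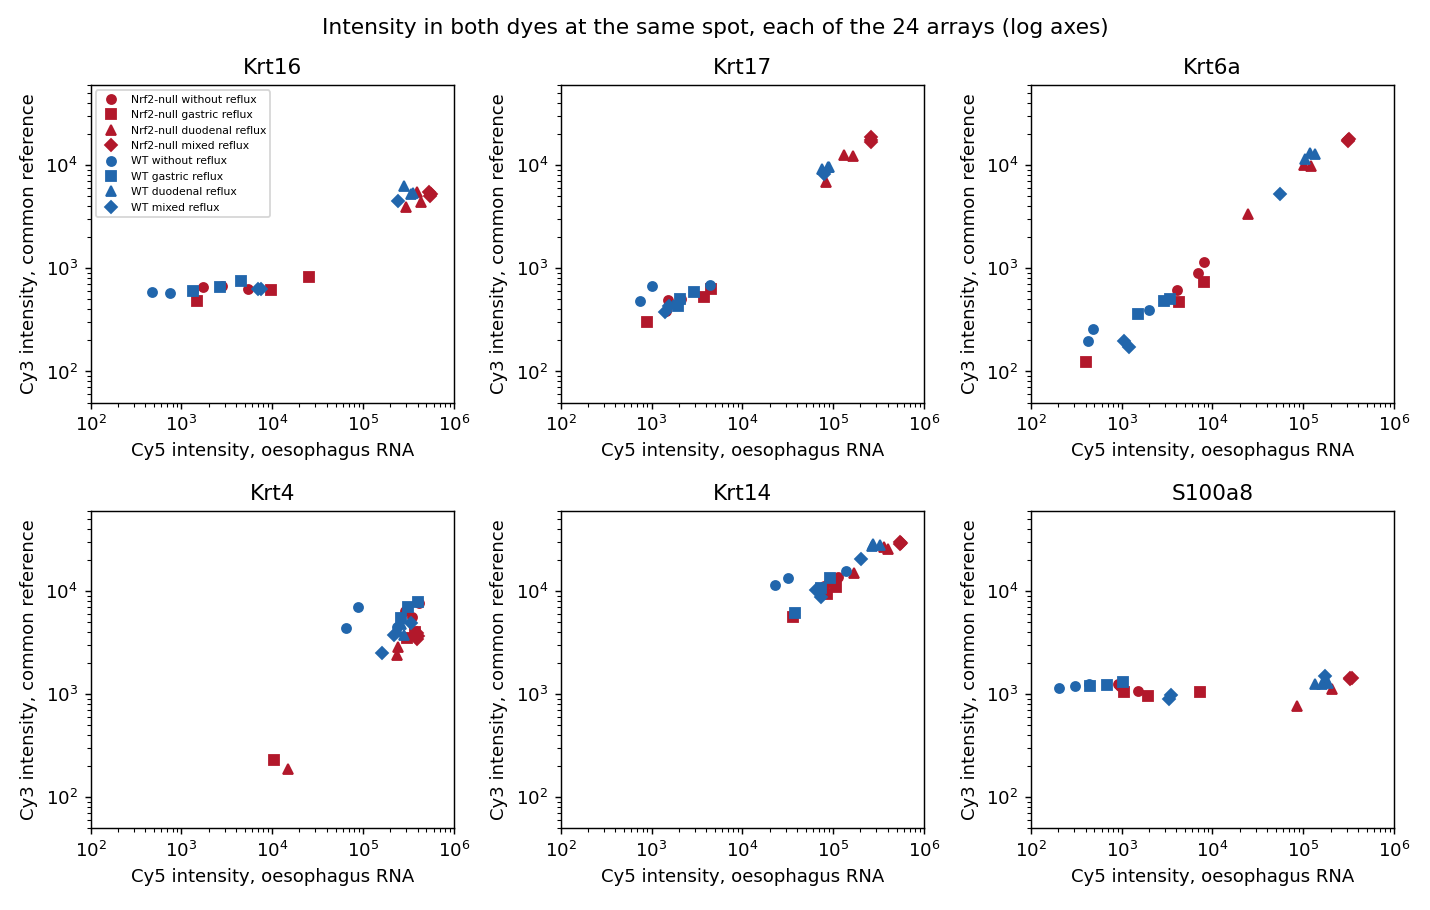
Cy3 signal of the reference RNA (vertical, log scale) against Cy5 signal of the oesophageal RNA (horizontal, log scale) on the 24 arrays for 5 keratins and S100a8, with 1 point per array and 1 panel per gene. The Cy3 signal of Krt6a runs from 123 to 17915 along with Cy5, while that of S100a8 stays between 758 and 1508.

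Under duodenal reflux all 4 stress keratins rose in both genotypes in Cy5 alone, and in the ratio all but Krt17 in WT mice did. Krt16, the type I stress keratin that pairs with Krt6, had the largest difference of the 13 probes. Its mean Cy5 signal, as read before background correction, was 439961, 300409 and 397002 in Nrf2-null mice with duodenal reflux, against 1731, 2821 and 5476 in Nrf2-null mice without reflux. In WT mice it was 283307, 338659 and 355372 with duodenal reflux, against 747, 474 and 1336 without. Every array with duodenal reflux was far brighter than every array without in each genotype, and the groups did not overlap. The log2 ratio was higher by 4.40 ± 0.47 in Nrf2-null mice (adjusted p = 2.86e-05) and by 4.40 ± 0.47 in WT mice (adjusted p = 6.46e-05), a fold of 21.2 and 21.1. In Cy5 alone the difference was 7.97 ± 0.85 (adjusted p = 3.8e-05) and 7.96 ± 0.85 (adjusted p = 0.00016). The difference between the genotypes in this response was 0 on the log2 scale, with a 95% interval of -1.41 to 1.42. The WT arrays with duodenal reflux share no scan day with those without. Of all groups, only Nrf2-null without reflux was scanned on both days 2 and 3, with array 3 alone on day 3. Where scan day is a block, here and below, a comparison between these days therefore rests on that array. With scan day as a block, Krt16 was higher by 3.45 in Nrf2-null mice and by 3.03 in WT mice, where the call was lost (adjusted p = 0.741).

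Krt17, which pairs with type II keratins in wounded epidermis and hair follicles, had Cy5 signals of 164215, 83124 and 132617 in Nrf2-null mice with duodenal reflux, against 1522, 2104 and 1441 without. In WT mice the signals were 74792, 90281 and 87666 with duodenal reflux, against 742, 1014 and 4374 without. No array with duodenal reflux overlapped one without. The log2 ratio was higher by 2.00 ± 0.31 in Nrf2-null mice (adjusted p = 0.000534), and by 0.86 ± 0.31 in WT mice, which missed the threshold (adjusted p = 0.0946). In Cy5 alone both passed, with 7.18 ± 0.84 (adjusted p = 7.47e-05) in Nrf2-null mice and 5.10 ± 0.84 (adjusted p = 0.00235) in WT mice. The difference between these responses was 1.14 ± 0.44 in the ratio, and it did not pass (adjusted p = 0.271).

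Krt6a is a type II partner of Krt16. Its Cy5 signals were 121961, 24504 and 101325 in Nrf2-null mice with duodenal reflux, against 4017, 8133 and 6885 without, and 118076, 104873 and 135741 in WT mice with duodenal reflux, against 429, 481 and 1994 without. The groups did not overlap, and the lowest of the 3 Nrf2-null duodenal signals came from the dim array. The log2 ratio was higher by 0.83 ± 0.24 in Nrf2-null mice (adjusted p = 0.0253) and by 0.95 ± 0.24 in WT mice (adjusted p = 0.0218), while in Cy5 alone it was higher by 4.47 ± 0.88 (adjusted p = 0.00342) and 6.58 ± 0.88 (adjusted p = 0.000387). The Krt6b probe rose with it, by 2.56 ± 0.48 (adjusted p = 0.0019) in the ratio in Nrf2-null mice and by 2.55 ± 0.48 (adjusted p = 0.0036) in WT mice. In Cy5 alone its differences were 4.93 ± 0.81 (adjusted p = 0.000972) and 6.54 ± 0.81 (adjusted p = 0.000261). Over the samples, the Krt6a and Krt6b probes differed in their centred profiles by a root mean square of 0.518 in Cy5 alone, against 2.85 and 2.74 for each profile itself. They were less alike in the ratio, at 0.814, against 0.5 for the Krt6a profile and 1.22 for that of Krt6b.

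**Figure D2:**
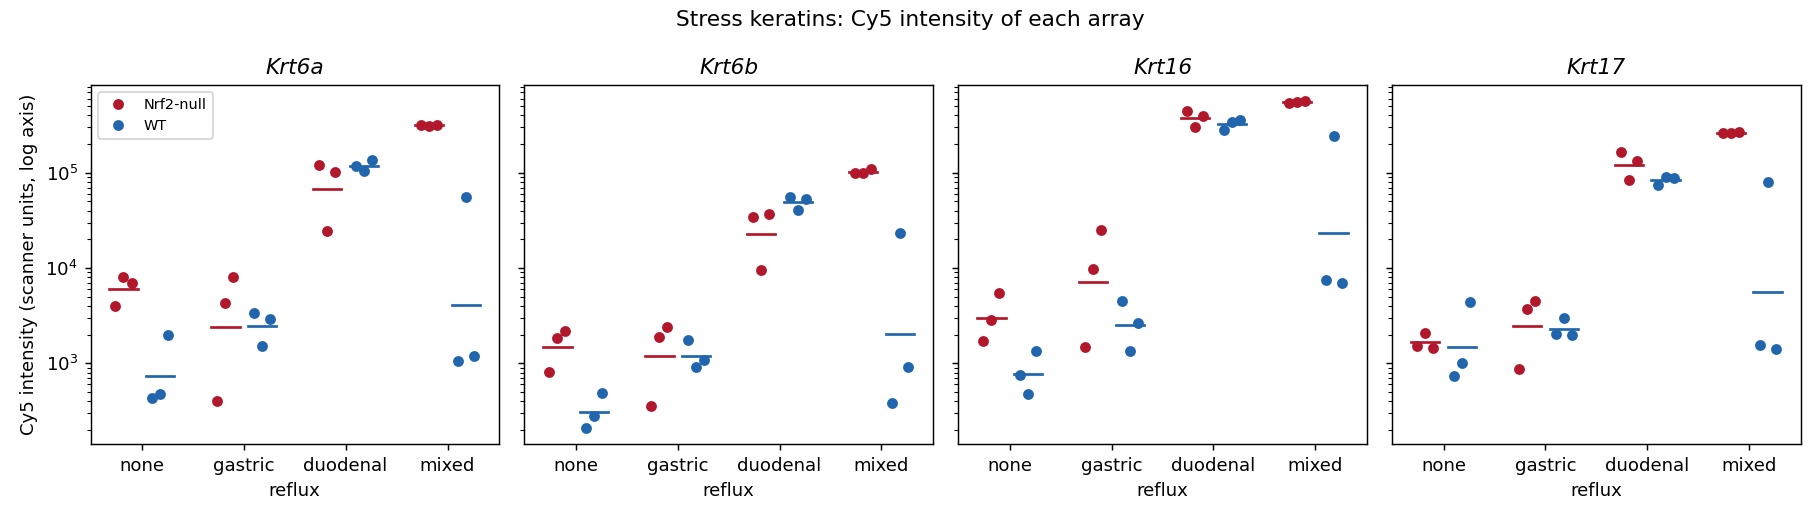
Cy5 signal of the 4 stress keratin probes (vertical, log scale) on each array in the 8 groups, Nrf2-null left of WT in each condition, 1 point per array, with a line at the geometric mean of each group. All arrays with duodenal reflux and the 3 of Nrf2-null mixed reflux are high, and in WT mixed reflux 1 array of 3 is high.

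Mixed reflux gave high stress keratins on every Nrf2-null array and on 1 WT array. Nrf2-null mixed reflux is 1 sample, so its standard errors and p-values take their spread from the other groups, and its tissue label differs from that of Nrf2-null mice without reflux, so mixed reflux and dissected tissue cannot be told apart there. Of 8 smooth muscle markers 2 were lower in that comparison, Cnn1 at -2.26 (adjusted p = 0.00447) and Tagln at -2.26 (adjusted p = 0.00722), where 3.87% of all probes were called. The mean of 10 skeletal muscle markers was 3.58 in that sample, against 2.28 to 3.31 in Nrf2-null mice without reflux. Cnn1 and Tagln were also lower in WT duodenal reflux, at -1.90 and -1.84. The part of dissected tissue in any of these values was not tested. Krt16 had Cy5 signals of 535056, 553178 and 562607 in Nrf2-null mice with mixed reflux, against 1731, 2821 and 5476 in Nrf2-null mice without reflux. In WT mice with mixed reflux it had 7544, 241358 and 7038, against 747, 474 and 1336 without. The second WT array was thus near the level of duodenal reflux, the other 2 were far dimmer than it, and all 3 lay above the WT arrays without reflux. The same array had 173353 for S100a8, against 3322 and 3513 on the others of its group. The log2 ratio of Krt16 was higher by 3.79 ± 0.67 in Nrf2-null mice (adjusted p = 0.00365) and by 2.92 ± 0.47 in WT mice (adjusted p = 0.0394). The WT call is fragile: the difference was 2.43 without WT mixed reflux 2 (adjusted p = 0.132), and in Cy5 alone it was 3.97 ± 0.85 with an adjusted p of 0.338.

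In Cy5 alone, the other stress keratins also passed in Nrf2-null mixed reflux against none, with 7.20 ± 1.19 for Krt17 (adjusted p = 0.00325), 6.01 ± 1.15 for Krt6b (adjusted p = 0.00916) and 5.60 ± 1.25 for Krt6a (adjusted p = 0.0253). None of these 3 passed in the ratio, where they were higher by 1.29 ± 0.44, 1.56 ± 0.68 and 0.58 ± 0.34. In WT mixed reflux the Krt17 signals were 1568, 79545 and 1426, against 742, 1014 and 4374 without reflux, so the groups overlapped but for the second array. Krt17 was not called there in either measure.

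Under gastric reflux no stress keratin passed against no reflux in either genotype. Krt16 had Cy5 signals of 1498, 9734 and 25331 in Nrf2-null mice with gastric reflux, against 1731, 2821 and 5476 without, and the lowest of the 3 came from the dim array. Scaled to the 75th percentile, the 3 values were 1.81, 2.36 and 3.63, against 0.04, 0.39 and 1.67, which do not overlap. The ratio was higher by 1.85 ± 0.47, with an adjusted p of 0.0974. In WT mice the Krt16 signals were 4528, 1355 and 2642 with gastric reflux, against 747, 474 and 1336 without. The scaled values overlapped, and the ratio was higher by 0.32 ± 0.47 (adjusted p = 0.755). Krt17 had log2 ratios of 3.97, 3.37 and 3.26 in Nrf2-null mice with gastric reflux, against 2.31, 2.43 and 2.52 without. These groups did not overlap, and the difference of 1.11 ± 0.31 did not pass (adjusted p = 0.12). Krt6a differed there by 0.29 ± 0.24 in the ratio (adjusted p = 0.579) and by -0.67 ± 0.88 in Cy5 alone (adjusted p = 0.72), and Krt6b by 0.28 ± 0.48 in the ratio (adjusted p = 0.804).

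In the order of Krt16 levels in Cy5 alone, Nrf2-null duodenal reflux stood at 8.66 ± 0.71 (SD, n = 3), then Nrf2-null mixed reflux at 8.13 (1 sample) and WT duodenal reflux at 8.08 ± 0.03. After a gap came WT mixed reflux at 4.09 ± 2.53, Nrf2-null gastric reflux at 2.60 ± 0.93, Nrf2-null without reflux at 0.70 ± 0.86, WT gastric reflux at 0.28 ± 0.94 and WT without reflux at 0.12 ± 0.18 (SD, n = 3 each). The ranges of neighbours overlapped at 3 steps of this order: between WT mixed and Nrf2-null gastric reflux, between Nrf2-null without reflux and WT gastric reflux, and between WT gastric reflux and WT without reflux.

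The basal keratins were bright in every group. Krt14, the type I keratin of basal cells, had Cy5 signals of 401453, 171494 and 359908 in Nrf2-null mice with duodenal reflux, against 78556, 112920 and 89909 without. The groups did not overlap, although the lowest duodenal signal came from the dim array. The ratio was higher by 1.20 ± 0.38 (adjusted p = 0.0399) and Cy5 alone by 2.66 ± 0.34 (adjusted p = 0.000216). In WT mice the signals were 269539, 275718 and 332488 with duodenal reflux, against 139933 on the 1 array without reflux that measured it. The ratio differed by 0.11 ± 0.54 and did not pass. Scaled Cy5 was higher on each WT duodenal array, at 7.78 to 8.01, against 6.60 on that 1 array. In Nrf2-null mixed reflux Krt14 had 565905, 551893 and 545105, and Cy5 alone was higher by 2.49 ± 0.48 (adjusted p = 0.0123).

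Krt5, the type II partner of Krt14, had Cy5 signals of 405202, 192906 and 362160 in Nrf2-null mice with duodenal reflux, against 304306, 372788 and 325672 without. These signals overlap, and scaled for the brightness of the array they do not, at 8.07, 8.85 and 8.19, against 7.48, 7.42 and 7.56. The ratio was higher by 0.94 ± 0.38 (adjusted p = 0.0927) and Cy5 alone by 0.88 ± 0.25 (adjusted p = 0.0281). In WT mice neither measure passed, with 0.21 ± 0.42 and 0.25 ± 0.28. Over 20 samples, Krt5 and Krt14 were closer in the ratio, with a root mean square difference of centred profiles of 0.213, than in Cy5 alone, with 0.901. Under gastric reflux in WT mice Krt14 fell by 1.69 on the log2 scale in Cy5 alone (adjusted p = 0.047), with scaled values of 4.09 to 5.50 against 6.60 on the 1 array without reflux that measured it, and the ratio did not pass. The spread of that single array is taken from the other groups.

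The mucosal pair Krt4 and Krt13 passed under duodenal reflux in Nrf2-null mice in the ratio and not in Cy5 alone. Krt4, the type II keratin of the upper layers of the oesophageal mucosa, had Cy5 signals of 236540, 15118 and 240498 in Nrf2-null mice with duodenal reflux, against 292997, 412488 and 348778 without. Before scaling, each duodenal array was lower, and the dim array was lowest by far. Scaled for the brightness of the array the groups overlapped, at 5.17 to 7.59 with duodenal reflux, against 7.42 to 7.66 without. The Cy3 signal at the same spot was 2401, 189 and 2863 with duodenal reflux, against 6428, 7598 and 5642 without, and was thus lower on every duodenal array too. The ratio was higher with duodenal reflux, by 1.44 ± 0.39 (adjusted p = 0.0184), while Cy5 alone was lower, at -0.86 ± 0.64 (adjusted p = 0.356). Without both dim arrays the Cy5 difference was -0.11.

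Krt13 is the type I partner of Krt4. Its brighter probe had Cy5 signals of 210976, 9588 and 201334 in Nrf2-null mice with duodenal reflux, against 182492, 272517 and 208069 without. The ratio was higher by 1.48 ± 0.32 (adjusted p = 0.00528) and Cy5 alone was lower, at -0.55 ± 0.61 (adjusted p = 0.54). Without both dim arrays it was higher in Cy5 alone too, at 0.36, which did not pass (adjusted p = 0.335). At the dimmer probe the ratio was higher by 0.46 ± 0.14 (adjusted p = 0.0368) and Cy5 alone was lower, at -0.87 ± 0.68 (adjusted p = 0.38), or -0.03 without both dim arrays. The calls for Krt4 and Krt13 therefore rest on the ratio. In WT mice with duodenal reflux Krt4 and both Krt13 probes were uncalled in both measures, with ratio differences of 0.13 to 0.24 and Cy5 differences of -0.15 to 0.40. On the remaining arrays the Krt4 signal stayed within 162231 to 412488 over the reflux and no-reflux groups outside slide 1 and both dim arrays.

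The cornification pair split. Krt1, the type II keratin of cells committed to cornify, fell under duodenal reflux at its brighter probe. The Cy5 signals were 109, 55 and 79 in Nrf2-null mice with duodenal reflux, against 1018, 1057 and 1763 without, and 160, 153 and 163 in WT mice with duodenal reflux, against 1140, 1599 and 4188 without. The groups did not overlap in either genotype, and the dim array was the 1 array of 24 on which the probe was not well above background. The ratio fell by 3.52 on the log2 scale, with an SE of 0.74, in Nrf2-null mice (adjusted p = 0.00391) and by 3.56, with an SE of 0.74, in WT mice (adjusted p = 0.00684). Cy5 alone fell by 2.65 (adjusted p = 0.04) and by 4.19 (adjusted p = 0.00846). With scan day as a block the call at the brighter Krt1 probe was lost in both genotypes, at -4.19 in Nrf2-null mice (adjusted p = 0.0631) and -4.86 in WT mice (adjusted p = 0.866).

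In mixed reflux the brighter Krt1 probe had 402, 405 and 421 in Nrf2-null mice and 98, 678 and 134 in WT mice, below every array without reflux of the same genotype. Neither difference passed, and in WT mice the ratio differed by -3.39 ± 0.74 (adjusted p = 0.134). Gastric reflux scattered the probe, with 123, 12470 and 1781 in Nrf2-null mice and 17387, 12424 and 2883 in WT mice. The dimmer Krt1 probe, on the opposite strand, had 108 to 595 over the 24 arrays and did not fall under duodenal reflux in either genotype, with differences of -0.26 ± 0.19 in Nrf2-null mice and 0.05 ± 0.19 in WT mice. The 2 Krt1 probes differed by a root mean square of 1.89 in the ratio, about as much as the brighter probe varied by itself, which was 1.91.

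Krt10, the type I partner of Krt1, was called lower in no duodenal comparison. The brighter Krt10 probe had Cy5 signals of 30496, 6053 and 28466 in Nrf2-null mice with duodenal reflux, against 24715, 41995 and 30659 without, and 83792, 91040 and 113479 in WT mice with duodenal reflux, against 31035 on the 1 array without reflux that measured it. In Nrf2-null mice the groups overlapped and in WT mice the duodenal arrays were higher. The ratio differences were 0.35 ± 0.27 (adjusted p = 0.387) and 0.22 ± 0.38 (adjusted p = 0.778). At the dimmer Krt10 probe, printed above, the WT duodenal signals were 11265, 12797 and 13693, against 469, 837 and 3191 without reflux. These did not overlap, and Cy5 alone was higher by 2.81 ± 0.75, which just missed the threshold (adjusted p = 0.0574). In Nrf2-null mixed reflux the same probe had 19646, 21597 and 20563, against 680, 1041 and 1420 without reflux, and Cy5 alone was higher by 4.26 ± 1.06 (adjusted p = 0.0498).

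**Figure D3:**
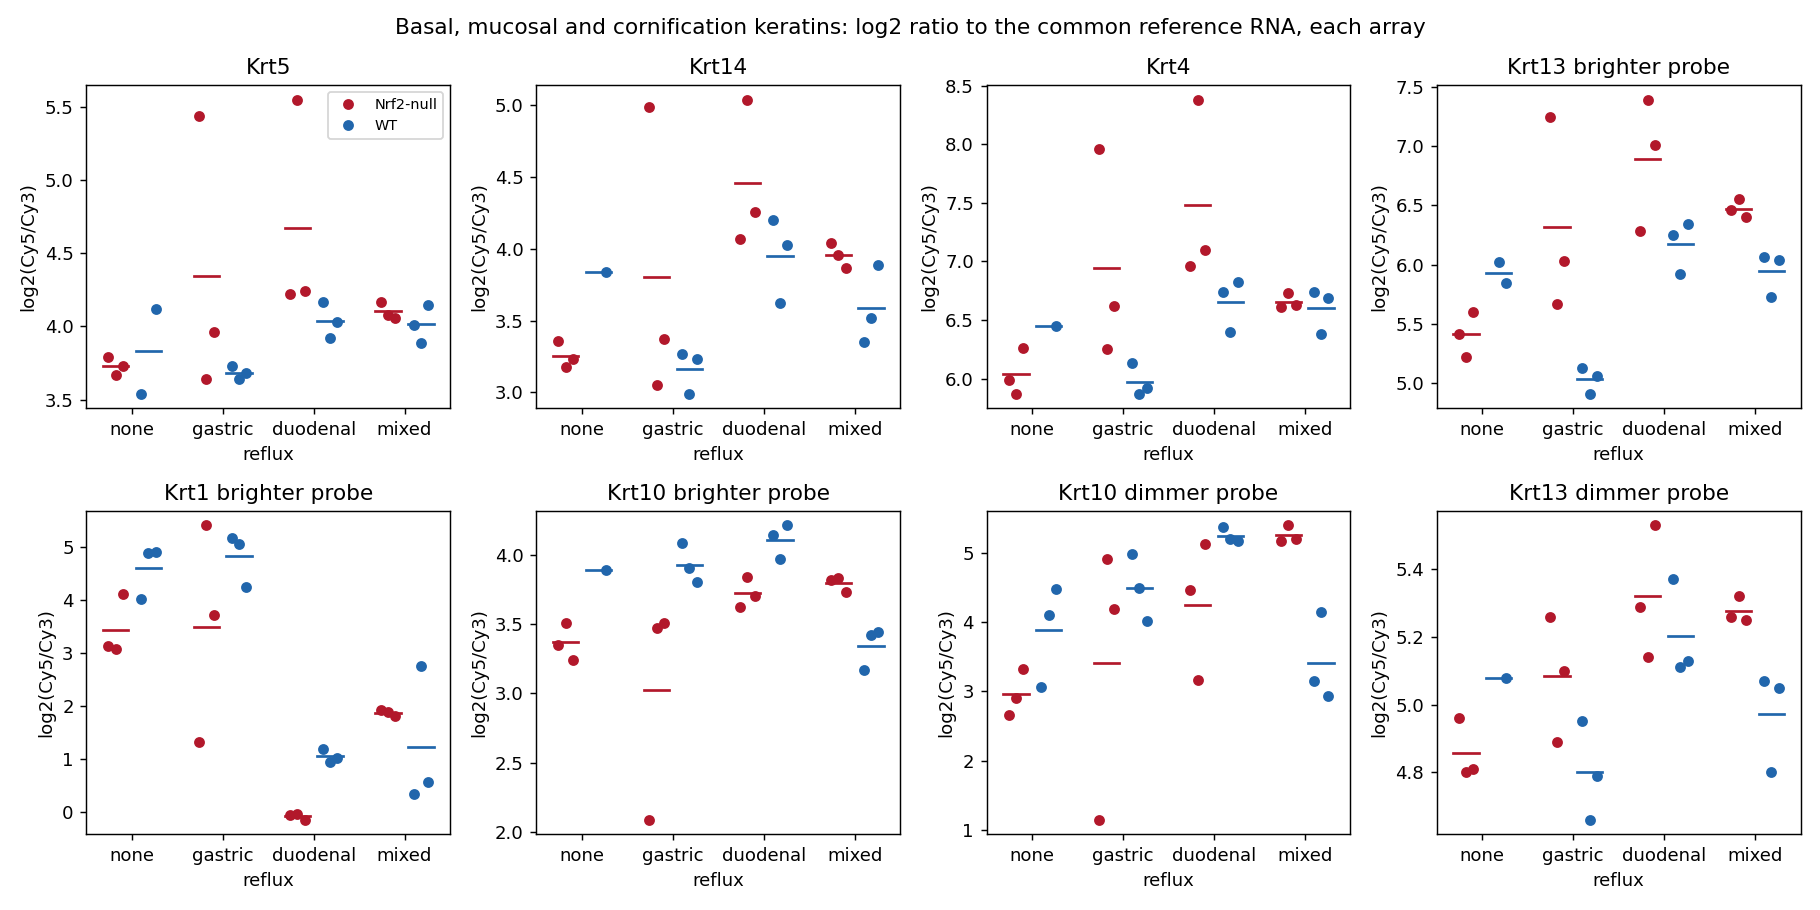
Log2 ratio of oesophageal to reference RNA (vertical) for the basal, mucosal and cornification keratin probes on each array in the 8 groups, Nrf2-null left of WT in each condition, 1 point per array, with a line at the mean of each group. The brighter Krt1 probe is low on all 6 duodenal arrays, at -0.14 to 1.19, and the highest Krt4 ratios, 7.96 and 8.38, are those of both dim Nrf2-null arrays.

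Counted over the 13 probes, duodenal reflux gave 9 calls in the ratio in Nrf2-null mice, 8 higher and 1 lower, where 18.9% of all probes tested were called. The median difference of the 13 was 1.20, against 0.02 for all probes. In WT mice it gave 4 calls, 3 higher and 1 lower, where 9.66% of all probes were called, and the median was 0.22, against 0.07. In Cy5 alone the counts were 7 in Nrf2-null mice (13.4% of all probes called) and 5 in WT mice (2.28%). With scan day as a block the counts in the ratio were 2 in Nrf2-null mice and 0 in WT mice, and the Nrf2-null count was 5 when Nrf2-null array 1 or 2 without reflux was left out. Mixed reflux gave 1 call in Nrf2-null mice (3.87% of all probes called) and 1 in WT mice (0.0333%), in both cases Krt16. In Cy5 alone mixed reflux gave 6 in Nrf2-null mice (1.6% of all probes called) and 0 in WT mice (0%), where 3 had an unadjusted p under 0.05. Gastric reflux gave 0 calls by limma in the ratio in Nrf2-null mice (0.303% of all probes called) and 0 in WT mice (3.88%), with 4 and 1 at an unadjusted p under 0.05. In Cy5 alone these counts were 0 in Nrf2-null mice (0.216% of all probes called), with 1 at an unadjusted p under 0.05, and 1 in WT mice (7.45%), which was Krt14, set against 1 array without reflux. The reflux comparisons within a genotype share the arrays without reflux.

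**Figure D4:**
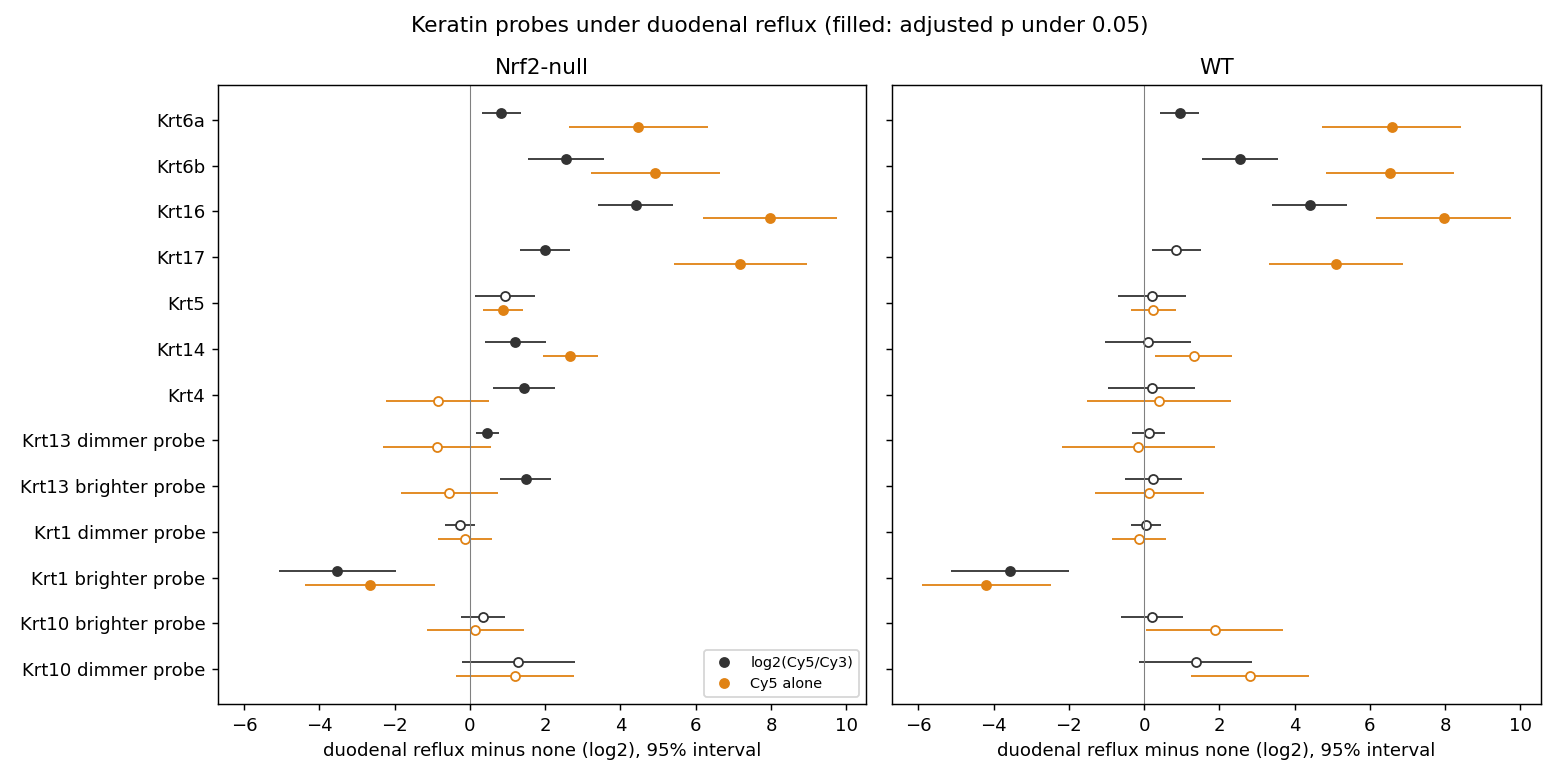
Difference between duodenal reflux and no reflux (horizontal, log2, with 95% intervals of the fit) for each keratin probe in Nrf2-null and WT mice, in the ratio to the reference (black) and in Cy5 alone (orange), with filled points for calls. Krt16 is at 4.40 in the ratio and near 8 in Cy5 alone in both genotypes, and Krt4 and Krt13 change sign between the measures in Nrf2-null mice.

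The comparison of the genotypes within each condition is the one that the study's design names. Under gastric reflux 5 of the 13 probes were called in the ratio, 4 higher and 1 lower in Nrf2-null mice, where 17.5% of all probes tested were called. Krt16 had log2 ratios of 4.20, 4.42 and 5.24 in Nrf2-null mice with gastric reflux, against 3.17, 1.56 and 2.54 in WT mice with gastric reflux. The groups did not overlap, and the difference was 2.19 ± 0.47, a fold of 4.58 (adjusted p = 0.00736). In Cy5 alone the Krt16 difference was 2.33 ± 0.85, with an adjusted p of 0.0933. The brighter Krt13 probe was higher by 1.28 (adjusted p = 0.0151), Krt6a by 0.74 (adjusted p = 0.0454) and the dimmer Krt1 probe by 0.59 (adjusted p = 0.0418). The brighter Krt10 probe was lower, at -0.90 (adjusted p = 0.0347).

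All 3 WT gastric arrays were scanned on 1 day and all 3 Nrf2-null gastric arrays on another, so scan day and genotype cannot be told apart within this pair. A scan-day block takes the step between these days from Nrf2-null without reflux alone, where only array 3 was on the later day. With scan day as a block no keratin passed and the Krt16 difference was 0.76. The reference channel itself differed in this comparison, with 44.4% of all probes called in Cy3 alone. Of 8 fibroblast markers 3 were lower in Nrf2-null mice, where 17.5% of all probes were called. The mean log2 ratio of the 8 was -2.20 to -0.43, against -0.23 to 0.24 in WT mice, and their part in the keratin differences was not tested. Of 15 epithelial markers 3 were higher in Nrf2-null mice, against the same 17.5% of all probes: Elf3 by 1.28, Cldn7 by 1.15 and Cldn4 by 0.83. The mean of the 15 was 3.39 to 3.46 in Nrf2-null gastric reflux, against 2.72 to 3.14 in WT gastric reflux. With that mean as a covariate no keratin was called, and Krt16 was at 0.87 (adjusted p = 0.83). That mean did not overlap between the groups, so the covariate cannot separate epithelial share from genotype. The call count also fell to 1 without WT gastric reflux 2 or without WT gastric reflux 3. In Cy5 alone the 1 keratin called was Krt5, at 0.97 ± 0.25 (adjusted p = 0.0333), where 5.79% of all probes were called. Krt5 was the 1 probe whose genotype difference under gastric reflux departed from that without reflux in Cy5 alone, by 1.27 ± 0.37 (adjusted p = 0.0455), where the median of all probes was itself 0.64 and 8.89% of all probes were called.

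Without reflux no keratin differed between the genotypes in the ratio by limma's test, with 0 also at an unadjusted p under 0.05, where 0.147% of all probes were called. In Cy5 alone 0 were called and 1 had an unadjusted p under 0.05 (0.133% of all probes called). Krt16 was 0.66 ± 0.47 higher in Nrf2-null mice (adjusted p = 0.763) and the brighter Krt1 probe was at -1.17 ± 0.74 (adjusted p = 0.736). Under duodenal reflux 0 were called, with 2 at an unadjusted p under 0.05, where 1.53% of all probes were called. Krt16 differed there by 0.67 ± 0.47 (adjusted p = 0.466) and Krt17 by 0.55 ± 0.31 (adjusted p = 0.364). In Cy5 alone 0 were called and 2 had an unadjusted p under 0.05 (0.719% of all probes called).

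Under mixed reflux 0 were called in the ratio by limma's test, with 2 at an unadjusted p under 0.05 and 2.74% of all probes called. In Cy5 alone 3 were called, where 1.17% of all probes were. Krt6a had Cy5 signals of 314248, 309337 and 318680 in Nrf2-null mice with mixed reflux, against 1049, 55283 and 1205 in WT mice with mixed reflux. All Nrf2-null arrays lay above all WT arrays, and Cy5 alone differed by 5.73 ± 1.25 (adjusted p = 0.0289), against 0.41 ± 0.34 in the ratio. Krt6b differed by 5.14 ± 1.15 (adjusted p = 0.0332) and Krt17 by 5.02 ± 1.19 (adjusted p = 0.0476) in Cy5 alone. These rest on 1 sample against 3 and on samples whose tissue label differs. Smooth muscle markers were lower in the same comparison for 2 of 8 genes, and their mean log2 ratio was 1.14 in the Nrf2-null sample, against 1.93 to 2.68 in WT mixed reflux. The mean of the skeletal muscle markers was 3.58 in the Nrf2-null sample, within the 2.15 to 4.47 of WT mixed reflux. The part of tissue make-up in the keratin differences was not tested.

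Averaged over the 4 conditions, 3 probes were called, where 7.5% of all probes were, and each was higher in Nrf2-null mice: Krt16 by 1.26 ± 0.26 (adjusted p = 0.00922), Krt6b by 1.00 ± 0.27 (adjusted p = 0.0329) and Krt6a by 0.46 ± 0.14 (adjusted p = 0.0478). In Cy5 alone 0 passed, with 6 at an unadjusted p under 0.05 and 1.83% of all probes called. The Krt16 average was 0.80 with scan day as a block (adjusted p = 0.474). These averages take in gastric reflux, where scan day and genotype cannot be told apart. They also take in mixed reflux, with 1 Nrf2-null sample whose tissue label differs. Taken singly, only gastric reflux gave keratin calls between the genotypes in the ratio. The F test of whether a genotype difference depended on the reflux condition called 0 of the 13 in the ratio, where 4.22% of all probes were called. In Cy5 alone it called the dimmer Krt1 probe (adjusted p = 0.0285) and the dimmer Krt10 probe (adjusted p = 0.0345), where 4.03% were called. The dimmer Krt1 probe, which reads the strand opposite to Krt1, had 114, 143 and 121 in Nrf2-null mixed reflux, against 365, 408 and 329 in WT mixed reflux.

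**Figure D5:**
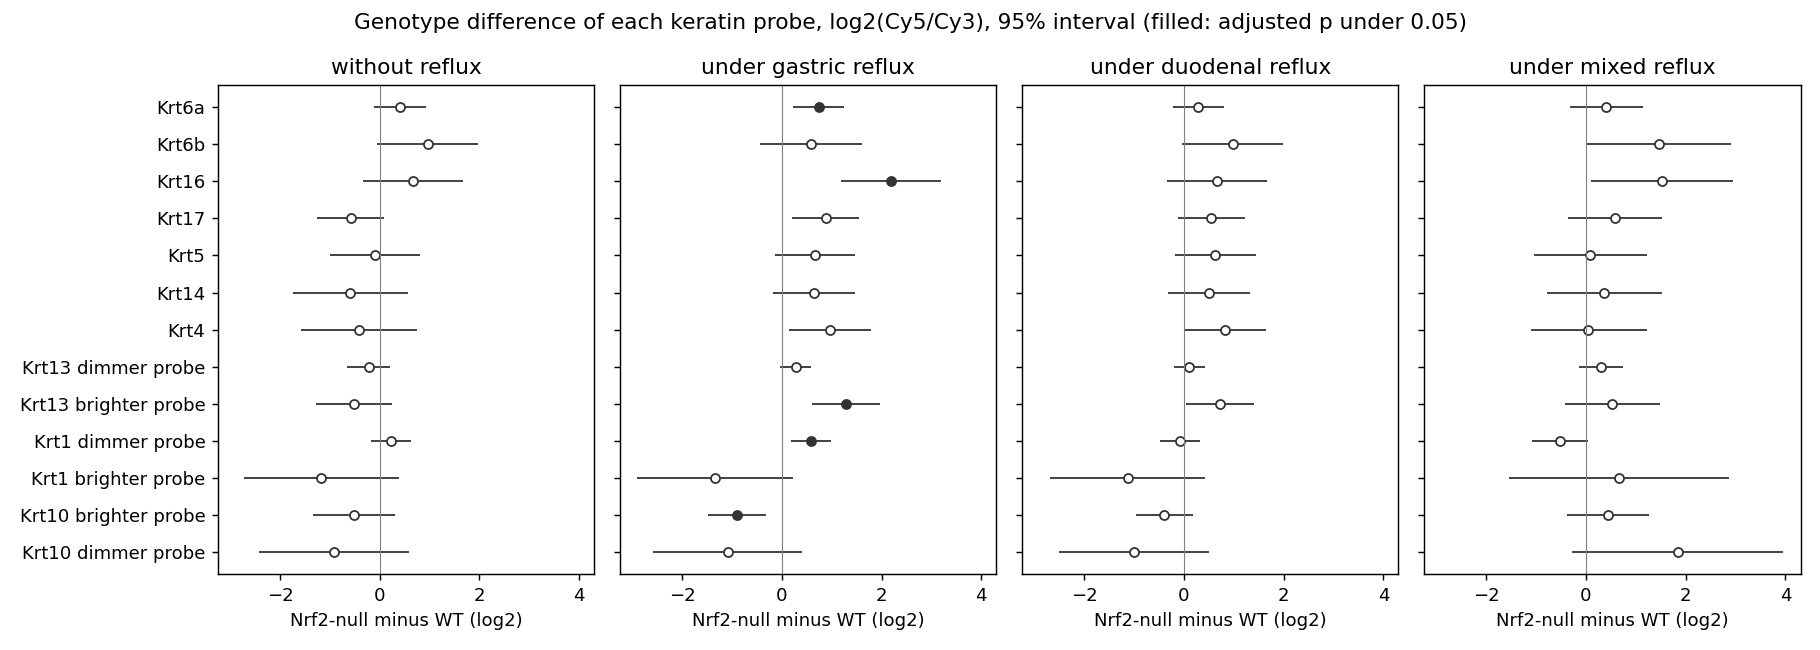
Difference between Nrf2-null and WT mice (horizontal, log2, with 95% intervals of the fit) for each keratin probe in each of the 4 conditions, in the ratio to the reference, with filled points for calls. The 5 filled points all lie under gastric reflux, with Krt16 furthest to the right at 2.19.

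Other genes of the keratin network were read against the share of all probes called under duodenal reflux, 18.9% in Nrf2-null mice and 9.66% in WT mice. Of 9 other stratified keratins tested, 1 rose and 2 fell in Nrf2-null mice: Krt84, a hair and tongue keratin, at 0.99 (adjusted p = 0.00599), Krt76, a keratin of oral mucosa, at -1.37 (adjusted p = 0.0383), and Krt2, a keratin of the upper epidermis, at -0.67 (adjusted p = 0.0241). In Cy5 alone Krt2 was at 0.11 (adjusted p = 0.865). In WT mice Krt84 rose by 0.89 (adjusted p = 0.0182) and Krt76 fell, at -1.67 (adjusted p = 0.0235). Krt76 passed there in Cy5 alone too, at -2.14 (adjusted p = 0.049), and Krt84 did not, at 0.49 (adjusted p = 0.473). Of 6 simple epithelial keratins, Krt20, a keratin of intestinal lining, rose by 1.02 (adjusted p = 0.0438) and Krt18 fell, at -0.66 (adjusted p = 0.0408), in Nrf2-null mice, and 0 of 6 passed in WT mice. The medians of these lists were 0.35 and -0.01 in Nrf2-null mice, against 0.02 for all probes.

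Of 10 genes that link keratin filaments to junctions or bundle them, 1 rose and 1 fell in Nrf2-null duodenal reflux, where 18.9% of all probes were called. The filament bundler Flg rose by 0.81 in the ratio (adjusted p = 0.00696) but was at -1.32 in Cy5 alone, and Plec, the linker plectin, was at -0.96 (adjusted p = 0.0159). Of 15 regulators of epithelial keratin genes, Tfap2c (1.46, adjusted p = 0.0226), Pitx1 (1.28, adjusted p = 0.0334) and Ovol1 (1.20, adjusted p = 0.0185) rose and 1 fell, Sox2, named after its value was seen, at -0.81 (adjusted p = 0.0401). In WT mice 0 of the 10 linkers and 0 of the 15 regulators passed, where 9.66% of all probes did. Under gastric reflux, 4 of the 9 other stratified keratins were higher in Nrf2-null than in WT mice, where 17.5% of all probes were called, led by Krt79 (1.17, adjusted p = 0.0197), Krt36 (1.06, adjusted p = 0.014) and Krt15 (0.92, adjusted p = 0.0161), with a list median of 0.85, against 0.07 for all probes.

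Some genes listed as markers of a cell type moved along with the stress keratins under duodenal reflux. The RNA is from bulk tissue, so the cells that made them, S100a8 included, are not known. Of 10 leukocyte markers 5 rose in Nrf2-null mice, where 18.9% of all probes were called, and 3 in WT mice, where 9.66% were, with S100a8 at 7.62 (adjusted p = 2.29e-05) and 7.99 (adjusted p = 4.05e-05). The other WT calls were smaller, Ptprc at 1.70 (adjusted p = 0.0361) and Csf3r at 1.38 (adjusted p = 0.0182), so a mean over the list leans on S100a8. Ptprc passed in Cy5 alone too, at 1.82 (adjusted p = 0.0466), and Csf3r did not, at 0.44 (adjusted p = 0.718). Over the 8 leukocyte markers measured on every array, the mean log2 ratio was 0.87 to 1.21 in Nrf2-null duodenal reflux. It was -0.80 to -0.20 in Nrf2-null mice without reflux. In WT mice it was 0.63 to 0.66 with duodenal reflux, against -1.28 to -0.76 without. Of 15 epithelial markers, 6 were measured on every array, and their mean was 3.19 to 3.23 in Nrf2-null duodenal reflux, against 2.22 to 2.42 without reflux, and 2.64 to 2.66 in WT duodenal reflux, against 2.01 to 2.34 without. Neither list overlapped between duodenal reflux and none in either genotype. With the centred mean of the epithelial markers as a covariate, 1 keratin was called in each genotype, against 9 in Nrf2-null mice and 4 in WT mice without it. That keratin was Krt16, at 3.12 in Nrf2-null mice and 3.41 in WT mice. Of 8 smooth muscle markers 2 fell in WT duodenal reflux, Cnn1 at -1.90 (adjusted p = 0.00871) and Tagln at -1.84 (adjusted p = 0.0153). Of 8 gastric gland markers 6 were tested, with a mean of 0.15 to 0.75 over all samples and no call in the ratio for duodenal reflux in either genotype. The mean of the epithelial markers was itself higher under duodenal reflux, so using it as a covariate cannot separate cell share from reflux. The part of cell make-up in the keratin differences was not tested.

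The genes nearest to a keratin were ranked by the root mean square difference of centred log2 ratios. The 5 nearest to Krt16 over 22 samples were Cd163l1 (0.626), Pglyrp1 (0.689), Ankk1 (0.809), Cdhr1 (0.838) and Epgn (0.847), against 1.94 for the Krt16 profile itself. Those nearest to Krt5 over 21 samples were Lce1b (0.159), Sim2, Ceacam19, Srsf4 and Rapgef3 (0.167), against 0.511 for Krt5. Krt13 had 4930524J08Rik (0.237), Bak1, Dhrs13, Adpgk and Pold3 (0.261), against 0.659, and Krt10 had Tbl1xr1 (0.291), Gpaa1, Sec23ip, Rbm8a and Ucp2 (0.302), against 0.452. The samples share the reference RNA, slides and scan days, and these ranks are descriptions.

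Promoters of 4 of the 10 genes, 5 windows of 300 bases, were in the RefSeq promoter table used. The antioxidant response element letters TGACNNNGC, the core that Nrf2 binds with small Maf proteins, occurred on either strand in the window of Krt5, and in 12.4% of all 32851 windows. The AP-1 letters TGANTCA occurred in both windows of Krt13 and in 7.81% of all, and TATAAA in that of Krt10 and in 13.6% of all. A match says only that these letters are in the window.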

How the data were processed

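Oesophageal RNA (Cy5) was hybridised with a common reference RNA (Cy3) on 24 2-colour arrays. The deposited scanner files hold mean intensities and local backgrounds per spot, and a log10 ratio, written by Agilent Feature Extraction 10.5.1.1 (2 arrays) or 10.7.3.1 (22 arrays) per the file headers, where the submitters' processing notes name version 9.1. The authors' deposited value table is on a log2 scale by its slope of 2.58 to 3.14 on the log10 ratio, with array medians of 0 to 0.069. How it was normalised is unknown here, and it served as an alternative.

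Control spots and spots marked as outliers were left out. Intensities were corrected by normexp (offset 50) and normalised within arrays by loess in limma 3.58.1 (R 4.3.3), and repeat spots were averaged. Probes were kept if well above background in Cy5 on every array of at least 1 group, so a kept probe can be dim in other groups. A group-means model was fitted to 22 samples with moderated tests and Benjamini-Hochberg adjustment over 30029 probes at 0.05. Cy5 alone, added after seeing the data, is the corrected log2 Cy5 intensity minus the 75th percentile of its array. On simulated data for duodenal reflux in Nrf2-null mice the fit called 46% of probes changed by 1 and 85% of those changed by 2 on the log2 scale. The simulation changed 100 probes by each amount, while 18.9% of all probes were called in the data. Its noise held no slides, scan days or dim arrays, so these shares are not the sensitivity of the comparison itself. Array number limits the precision, and p-values measure the spread between arrays, which may be partly technical. The members and gene lists were chosen with earlier results of these data known. All member probes are named; of each list at most the 3 called genes with the largest differences are, and the 5 genes nearest to 4 keratins. Replicate numbers did not pair the samples.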

Additional observations from a re-analysis of the deposited data

How the results depend on the processing

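The Krt16 rise with duodenal reflux in Nrf2-null mice kept its call in all 41 other settings of the ratio that were run, at 3.12 to 4.88, and in WT mice in 39 of 40. The number of keratin probes called moved as follows, and the cause was not tested. For the genotype difference under gastric reflux (5) it was 3 with backgrounds as read, 2 with median centring, 0 with scan day as a block, 2 with slide as a random block, 3 with replicate number as a block, 0 with only the groups compared, 0 with the epithelial mean as a covariate, and in Cy5 alone 1, also quantile normalised, without both dim arrays or without slide 1, and 2 without WT mixed reflux 2. For the mean genotype difference (3) it was 1 with the scanner software's ratio, 7 with median centring, 0 with scan day or the epithelial mean, 1 with slide, 5 without both dim arrays, 1 without slide 1, and in Cy5 alone 0, with 1 after quantile normalisation. For the genotype difference under mixed reflux (0) it was 1 with median centring, 3 with Nrf2-null mixed reflux as 3 samples, 1 without both dim arrays, and in Cy5 alone 3, 4 with quantiles, 8 without dim arrays, 1 without slide 1 and 6 without WT mixed reflux 2. Under duodenal reflux (0) it was 1 with only the groups compared, and in Cy5 alone 2 with quantiles or without dim arrays. Without reflux (0) it was 4 with backgrounds as read, and 1 in Cy5 alone without dim arrays. For duodenal reflux against none it was 2 with scan day and 1 within day 3 or with the epithelial mean in Nrf2-null mice (9), and in WT mice (4) 2 with the scanner software's ratio, 0 with scan day, 1 with the epithelial mean or without slide 1, and 7 in Cy5 alone without dim arrays. For mixed reflux against none in Nrf2-null mice (1) it was 4 with median centring, 7 as 3 samples, 0 with scan day, within day 3 or with the epithelial mean, 3 with only the groups compared, 4 without dim arrays, and in Cy5 alone 6, 5 with quantiles or without slide 1, and 8 without dim arrays. In WT mice (1) it was 4 with backgrounds as read, 2 without dim arrays, and 0 with median centring, no dim filter, scan day, slide, the replicate block, only the groups compared, the epithelial mean, without slide 1 and in Cy5 alone. For gastric reflux it was 1 in Nrf2-null mice (0) with mixed reflux as 3 samples, and in WT mice (0) 2 with backgrounds as read, 1 with only the groups compared, 1 without dim arrays, and in Cy5 alone 1, with 3 without dim arrays. The F test (0) gave 1 with backgrounds as read, 2 as 3 samples, 4 without dim arrays, and in Cy5 alone 2, 5 without dim arrays and 7 without WT mixed reflux 2. Replicate numbers did not pair samples (correlations of deviations -0.33 to 0.05), and the replicate block moved no other count by over 1.5 times. Leaving out 1 array gave 1 to 7 for genotype under gastric reflux, 0 to 0 for genotype in the other conditions, 1 to 3 for the mean, 5 to 12 in Nrf2-null and 3 to 5 in WT mice for duodenal reflux against none, 1 to 2 in Nrf2-null and 0 to 2 in WT mice for mixed reflux, 0 to 1 in both for gastric reflux, and 0 to 2 for the F test. The Krt16 call for WT mixed reflux was lost without any single WT array of either group.

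Some called differences turned. With median centring the dimmer Krt13 probe was at -0.04 for duodenal reflux in Nrf2-null mice. With the epithelial mean as a covariate Krt6a was at -0.08 for genotype under gastric reflux and -0.01 for the mean. In Cy5 alone the brighter Krt13 probe was at -0.37 for genotype under gastric reflux (-0.60 with quantiles, 0.39 without dim arrays). For duodenal reflux in Nrf2-null mice, Cy5 alone gave Krt4 at -0.86 (-1.24 with quantiles, -0.11 without dim arrays), the dimmer Krt13 probe at -0.87 (-1.10 and -0.03) and the brighter Krt13 probe at -0.55 (-0.85 with quantiles, 0.36 without dim arrays). The 7 settings with Cy5 alone or without the doubted arrays were chosen after seeing the data. The low signal of both dim arrays limits Krt4, Krt13 and Krt1 most.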
